A study of Mus musculus with 6 samples.

Results

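The genes of the spindle assembly checkpoint and of the Mad2 family were measured in mouse eggs at metaphase II (MII), at which the ovulated egg waits for the sperm with its chromosomes on the meiotic spindle. The set holds 10 genes named by symbol (Mad1l1, Mad2l1, Mad2l2, Mad2l1bp, Bub1, Bub1b, Bub3, Ttk, Cdc20 and Fzr1) among the 24062 genes of the count table. The set was chosen by name as the checkpoint and its relatives, and selected on 1 measured value, the absence of Mad2l2 counts in the H3.3 libraries. The values of Mad2l2 against H3.3 are therefore a description, with no test. All 10 genes had counts, and all 10 passed the filter on low counts.

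The eggs came from superovulated 8-week-old females that carried the transgene HISRainbow and the recombinase Figla-iCre, which acts in oocytes. A colour seen by confocal microscopy showed which tagged form of the replacement histone H3.3 an egg expressed. The 3 groups were H3.3-eGFP (here H3.3), H3.3K27R-mCherry (K27R, lysine 27 to arginine) and H3.3R26K-eCFP (R26K, arginine 26 to lysine), with 2 libraries each. Every group thus carried a tagged histone, no group without one was analysed, and the tag changed with the substitution, so the effects of tag and substitution cannot be told apart. The labels do not say how many eggs or females made up a library.

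The checkpoint holds back anaphase while kinetochores lack microtubules. Ttk (Mps1) and Bub1 are kinases that build the signal at the kinetochore, Bub3 is the adaptor of Bub1, and Mad1l1 anchors Mad2 (Mad2l1) there. Mad2 and BubR1 (Bub1b) with Bub3 seize Cdc20, the co-activator of the anaphase-promoting complex (APC/C), the ubiquitin ligase that destroys cyclin B and securin. Mad2l1bp (p31comet) helps to take this inhibitor apart. Fzr1 (Cdh1) is the other co-activator of the APC/C, known in mouse oocytes for its part in prophase arrest. Mad2l2 (Rev7) shares the HORMA fold of Mad2 and works mainly as a subunit of DNA polymerase zeta and of shieldin, and it can also bind Cdh1.

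The 3′ ends are shown first, because the cDNA was primed on poly(A) tails and because the egg controls these tails through cytoplasmic polyadenylation elements. Each line gives the 30 bases that end with the polyadenylation signal of a GENCODE M21 coding transcript (build GRCm38, the same assembly as mm10). The signal was searched as AATAAA or ATTAAA. Capitals mark it and any TTTTAT or TTTTAAT, the letters searched for the polyadenylation element on the transcript strand.
Cdc20: tcttgtTTTTATTTTATtttttctAATAAA
Bub1b: ctctcctttcactgtgtaTTTTATAATAAA
Ttk: gctggaatgttgaagagctctgtaAATAAA
Mad2l1: cagttgatgctgtttaatttctgtAATAAA
Mad2l2: tccactgtgccatgcgttattgttAATAAA
In the 100 bases before the signal, these letters were found 2 times in Cdc20 and in Bub1b (overlapping by 1 base in Cdc20) and 1 time in Ttk, outside the stretch printed for Ttk. The other 6 members with a signal in the last 50 bases had none in that window, Mad2l1 and Mad2l2 among them. The Mad2l1 end shown is that of its shorter coding transcript, of 1725 bases. Of 14537 genes whose longest coding transcript ended with such a signal, 18.1% had these letters. No signal was found in that window of Fzr1.

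The promoters of Cdc20 and Mad2l2 are shown because their means differed by the largest ratios between H3.3 and R26K. The sequences, from RefSeq on GRCm38.p6, run from 250 bases before to 50 bases after an annotated start, on the minus strand at chr4:118437294-118437593 for Cdc20 and on the plus strand at chr4:148130670-148130969 for Mad2l2, the first of 2 listed for it. Capitals mark TTTGAA or TTCGAA on either strand, the letters of the cell cycle homology region found in many promoters of mitotic genes.
Cdc20: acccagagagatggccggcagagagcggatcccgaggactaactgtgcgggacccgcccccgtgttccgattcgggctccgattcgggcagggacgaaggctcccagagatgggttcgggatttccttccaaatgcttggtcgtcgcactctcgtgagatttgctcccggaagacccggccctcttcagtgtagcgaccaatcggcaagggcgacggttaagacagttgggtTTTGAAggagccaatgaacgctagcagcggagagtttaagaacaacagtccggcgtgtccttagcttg
Mad2l2: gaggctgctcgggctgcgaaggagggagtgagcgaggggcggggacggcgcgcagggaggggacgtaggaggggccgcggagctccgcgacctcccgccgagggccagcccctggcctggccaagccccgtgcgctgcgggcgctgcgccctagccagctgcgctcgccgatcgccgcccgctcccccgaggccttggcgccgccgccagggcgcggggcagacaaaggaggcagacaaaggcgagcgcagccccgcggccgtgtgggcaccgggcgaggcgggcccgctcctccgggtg
The letters occurred 1 time in Cdc20. They were also present in the promoters of Bub1, Bub1b, Bub3 and Ttk, which makes 5 of 10 genes. The share over 20150 promoters of protein-coding genes was 16.9%, counted per promoter, whereas the 10 genes had 13 listed promoters. The other 5 genes did not have them in this window. The printed Mad2l2 promoter was 79.0% G and C with 41 CpG dinucleotides, and that of Cdc20 was 58.7% with 25.

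Gene counts totalled between 10803477 and 39603440 per library, with the R26K libraries the deepest. The R26K libraries and K27R replicate 1 had counts for 10715 to 12135 genes, and the other 3 for 7392 to 7590. Levels are given as CPM, a gene's count relative to the scaled total of its library. All 10 egg markers (Zp1, Zp2, Zp3, Gdf9, Bmp15, Mos, Oosp1, Nlrp5, Ooep and Dppa3) had counts in every library. Of 16 cumulus and granulosa markers, 4 to 14 had a count, and their summed level was 964.5 and 1806 CPM for H3.3, 1956 and 1416 for K27R, and 2079 and 1958 for R26K, most of it Serpine2 (940 to 1910 CPM). Tnfaip6, Cyp19a1, Inha and Akr1c18 were at 186, 143, 97.3 and 66.9 CPM in H3.3 replicate 2 and at 0 in H3.3 replicate 1. Lhcgr was at 0 throughout, and Fshr and Foxl2 had counts in R26K replicate 1 alone. Of 13 markers of blood, immune and epithelial cells 2 to 6 had a count (26.4 to 174 CPM in sum), mostly Pecam1, which was counted in every library at 15.4 to 156 CPM. H2-Aa was highest in the first H3.3 library (32.98 CPM) and the second K27R library (32.4 CPM), C1qb reached 17.1 CPM in the latter, and Ptprc, C1qa, Lyz2, Hba-a1, Hbb-b1 and Ovgp1 were at 0 in all libraries. The part of these cells in the results below was not tested. In such bulk material fewer transcripts per egg and fewer eggs with a transcript cannot be told apart.

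Per kilobase of exon, which allows genes to be compared, Bub1b was the most abundant member, with a mean over the 6 libraries of 553.5 CPM per kilobase and a range from 396 to 686. Mad2l1 followed at 160 (104 to 211), then Cdc20 at 118 (9.21 to 313), Mad2l1bp at 75.6 (18.7 to 137), Bub3 at 70.9 (52.3 to 87.0) and Ttk at 57.8 (24.7 to 141). Mad2l2 stood at 23.2 (0 to 46.5), Bub1 at 11.8 (3.44 to 30.04), Mad1l1 at 11.3 (3.77 to 16.7) and Fzr1 at 5.63 (0.0555 to 11.3). The ranges of neighbours in this order overlapped, except those of Bub1b and Mad2l1. That gap rests on the exon length taken for Mad2l1, 8032 bases with its longest transcript included. Over its shorter coding transcript of 1725 bases, Mad2l1 was at 744 CPM per kilobase, above the mean of Bub1b, so the first rank depends on that choice. The order of the members also differed between groups, with Cdc20 second in R26K at 295 CPM per kilobase and below Mad2l1bp, Bub3 and Ttk in K27R and H3.3.

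**Figure D1:**
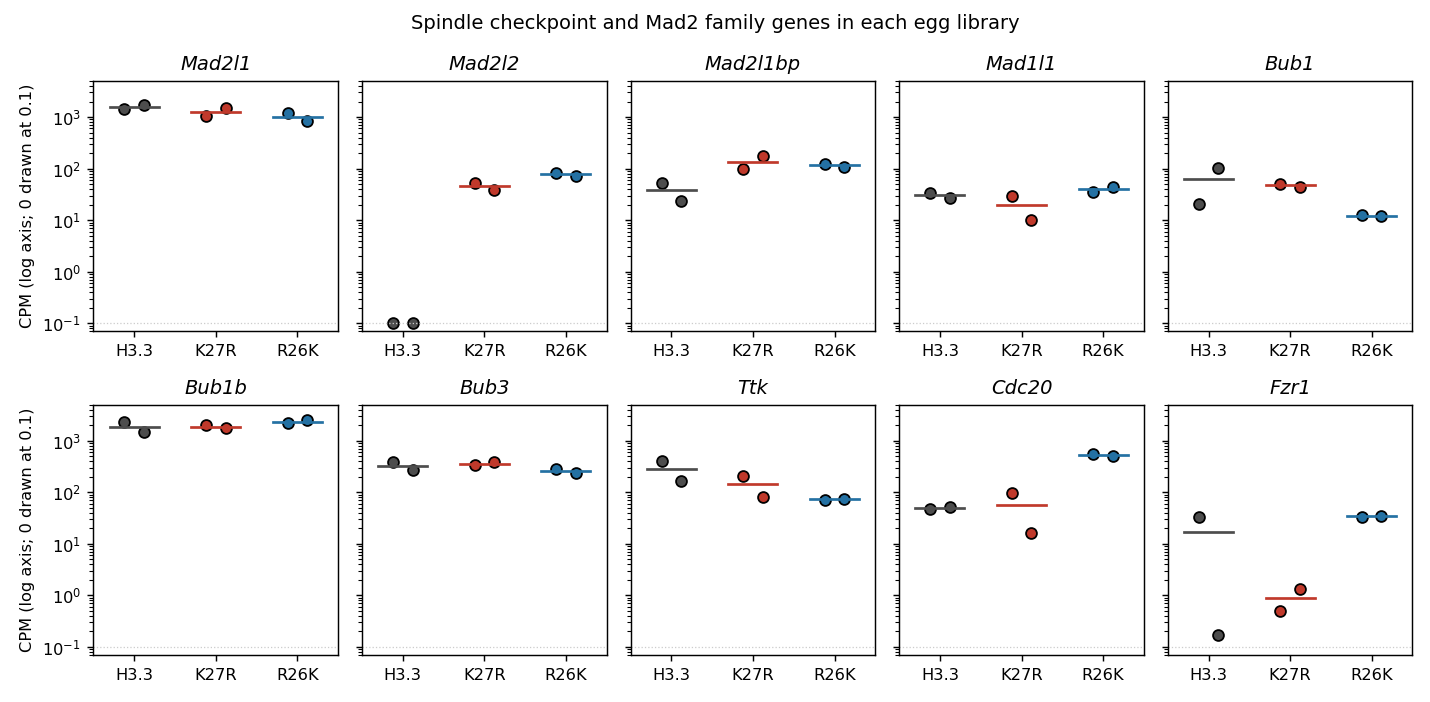
Level of each gene in each of the 6 libraries, in CPM on a log axis, with a point per library and a line at the mean of each group (2 libraries). Cdc20 was at 561 and 497 CPM for R26K and at most 95.03 CPM elsewhere, while the H3.3 libraries lacked any Mad2l2 count.

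Among the Mad2 proteins, Mad2l2 (chromosome 4, 148130384 to 148145699 on the plus strand) had 0 counts in both H3.3 libraries, 636 and 410 counts in K27R, and 3027 and 2419 for R26K. In CPM it was at 51.7 and 38.9 for K27R and at 82.1 and 73.0 for R26K. The separation from H3.3 followed from the selection. K27R and R26K did not overlap, with the R26K libraries the highest, as 36.3% of all tested genes were lower in K27R without overlap. A total of 3 counts would be 0.230 and 0.255 CPM in the H3.3 libraries, taken as a floor per library. The mean of Mad2l2 was 187-fold the mean of these floors in K27R and 320-fold in R26K. Such floors allow for counting error alone, because amplified reads do not each stand for a molecule. With each library thinned at random to the depth of the smallest, Mad2l2 had 606 and 410 counts in K27R and 784 and 810 for R26K. The smallest was K27R replicate 2, whose 410 counts were therefore unchanged. Thinning only evens the depth and does not address why H3.3 lacked counts. Missing counts were common in 3 of the libraries, however. Of the genes at 20 to 100 CPM on average in the other 5 libraries, counts were missing for 10.1% and 13.9% in H3.3 replicates 1 and 2 and for 11.4% in K27R replicate 2, against 0.449% in K27R replicate 1 and 0.0685% and 0.244% in R26K. In all, 488 of 10667 tested genes (4.57%) had no count in H3.3 and counts in all 4 other libraries, and 4 of these had a mean in K27R and R26K at least as high as Mad2l2, itself included. The part of these missing counts in the Mad2l2 values was not tested.

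The genes whose levels ran most like Mad2l2 were Ocrl, Abcd4, Acoxl, 2310035C23Rik and Aurkb, with Pearson r of 0.998, 0.998, 0.998, 0.998 and 0.997 on log2 CPM over the 6 libraries, out of 6141 genes of at least 10 CPM. Of these 5 genes, 4 also had no count in H3.3, and 2310035C23Rik was at 0.536 and 0.424 CPM there. Both R26K libraries lay above those of K27R in Ocrl and Abcd4, as in Mad2l2, and overlapped them in Acoxl, 2310035C23Rik and Aurkb. With a shared pair of zeros and 6 points, such values are a description only.

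Mad2l1 (chromosome 6, 66535390 to 66547220), Mad2 proper, was abundant in every library, at 1406 and 1698 CPM for H3.3, 1063 and 1485 for K27R, and 1212 and 838 for R26K. Both R26K libraries lay below both H3.3 libraries, with a log2 fold change of -0.60 ± 0.29 (SE) that did not pass (edgeR adjusted p = 0.267). A pseudogene, Gm42430, matches 454 bases of Mad2l1 at 95.4% identity, and 3 other genes match it over 103 to 122 bases, so its level is less certain.

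Mad2l1bp (chromosome 17, 46147387 to 46153553) was at 52.3 and 23.8 CPM for H3.3, 96.3 and 174 for K27R, and 121 and 110 for R26K. It was the 1 tested member whose levels in both mutant groups lay above both H3.3 libraries. The log2 fold change was 1.83 ± 0.60 for K27R and 1.60 ± 0.60 for R26K, and neither passed (edgeR adjusted p = 0.522 and 0.213). Without H3.3 replicate 1 the values were 2.51 and 2.27, and without H3.3 replicate 2 they were 1.37 and 1.14. Without K27R replicate 2 the K27R value was 1.34, and with the GC and length correction the R26K value was 0.86. The comparisons share the H3.3 libraries. Mad1l1 (chromosome 5, 140008689 to 140321552) was at 34.2 and 26.8 CPM for H3.3, 29.2 and 9.96 for K27R, and 35.2 and 44.2 for R26K, with K27R replicate 2 the lowest. Its log2 fold change in R26K against H3.3 was 0.38 ± 1.04 (edgeR adjusted p = 0.900), with a wide interval from -2.15 to 2.91.

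Of the kinases, Ttk (chromosome 9, 83834689 to 83872389) was at 409 and 164 CPM for H3.3, 205 and 80.1 for K27R, and 71.8 and 75.6 for R26K. Both R26K libraries were lower than all others, and the replicates of H3.3 and of K27R differed 2.49-fold and 2.56-fold. The log2 fold change in R26K against H3.3 was -1.96 ± 0.63, with an unadjusted edgeR p of 0.0206 and an adjusted p of 0.213. DESeq2 called it (-2.04, adjusted p = 0.0170). The value was -1.16 without H3.3 replicate 1 and -2.47 without H3.3 replicate 2.

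Bub1 (chromosome 2, 127801122 to 127831865) was at 20.5 and 103 CPM for H3.3, 50.8 and 43.6 for K27R, and 12.4 and 11.8 for R26K, so both R26K libraries were again the lowest. Its H3.3 replicates differed 5.01-fold, and the change in R26K of -2.35 ± 1.04 did not pass (edgeR adjusted p = 0.247). Without H3.3 replicate 2 it was -0.76. Bub1b (chromosome 2, 118598211 to 118641591), in contrast, was at 2307 and 1452 CPM for H3.3, 2001 and 1739 for K27R, and 2167 and 2515 for R26K, with the groups overlapping in both comparisons with H3.3. The 95% interval of its log2 fold change was -0.35 to 0.99 for R26K and -0.68 to 0.66 for K27R. Corrected for GC content and length, the value in R26K was -0.56 ± 0.23. Bub3 (chromosome 7, 131560222 to 131571895) was at 390 and 272 CPM for H3.3, 336 and 386 for K27R, and 287 and 234 for R26K, also with overlapping groups (intervals -1.08 to 0.39 and -0.61 to 0.86).

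Of the co-activators of the APC/C, Cdc20 had the largest log2 fold change of the tested members in R26K against H3.3. The gene (chromosome 4, 118432901 to 118437352 on the minus strand) was at 47.3 and 51.9 CPM for H3.3, 95.03 and 16.5 for K27R, and 561 and 497 for R26K. Both R26K libraries stood far above all 4 others, while the K27R replicates, 5.76-fold apart, lay on either side of H3.3. Against H3.3 the fold in R26K was 10.7 (log2 3.42 ± 0.81, 95% interval 1.46 to 5.37), with an unadjusted edgeR p of 0.00508 and an adjusted p of 0.138, which did not pass. Against R26K, K27R was 9.485-fold lower (log2 -3.25 ± 0.80, unadjusted p = 0.00624, edgeR adjusted p = 0.217, DESeq2 adjusted p = 0.000557). Without K27R replicate 1 this value was -5.00, and without K27R replicate 2 it was -2.48. The difference between K27R and H3.3 was 0.17 ± 0.74, with an interval from -1.62 to 1.96. Of 16 alternative settings, 5 called Cdc20 higher in R26K, DESeq2 among them, with adjusted p from 0.000218 to 0.276 over all 16. A correction for GC content and transcript length lowered the log2 fold change to 1.93 (edgeR adjusted p = 0.276). Exons of Cdc20 overlap 53 bases of Elovl1 on the opposite strand, and the kit does not mark strand. Elovl1 was at 0.383 and 2.72 CPM for H3.3, 39.995 and 0 for K27R, and 21.6 and 37.6 for R26K, so it too was higher in both R26K libraries than in H3.3. Its part in the Cdc20 counts was not tested.

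Fzr1 (chromosome 10, 81366222 to 81378516) was at 33.6 and 34.5 CPM for R26K. In H3.3 it was at 33.2 CPM in replicate 1 and 0.170 CPM in replicate 2, and in K27R at 0.488 and 1.33 CPM. In counts, the H3.3 replicates had 434 and 2, while the R26K replicates differed 1.02-fold in CPM. Neither comparison with H3.3 can be read without that split: without H3.3 replicate 1 the log2 fold change in K27R was 2.38, in place of -4.19 ± 2.40 with all libraries, and in R26K 7.59, in place of 1.03 ± 2.12. For K27R against R26K, where H3.3 levels do not enter the fold, the value was -5.22 ± 2.52 (edgeR adjusted p = 0.477). Its SE and p do depend on the H3.3 split, because the fit shares a spread over all 6 libraries. Fzr1 exons overlap 4 bases of Mfsd12, which is listed at 0 in all libraries.

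**Figure D2:**
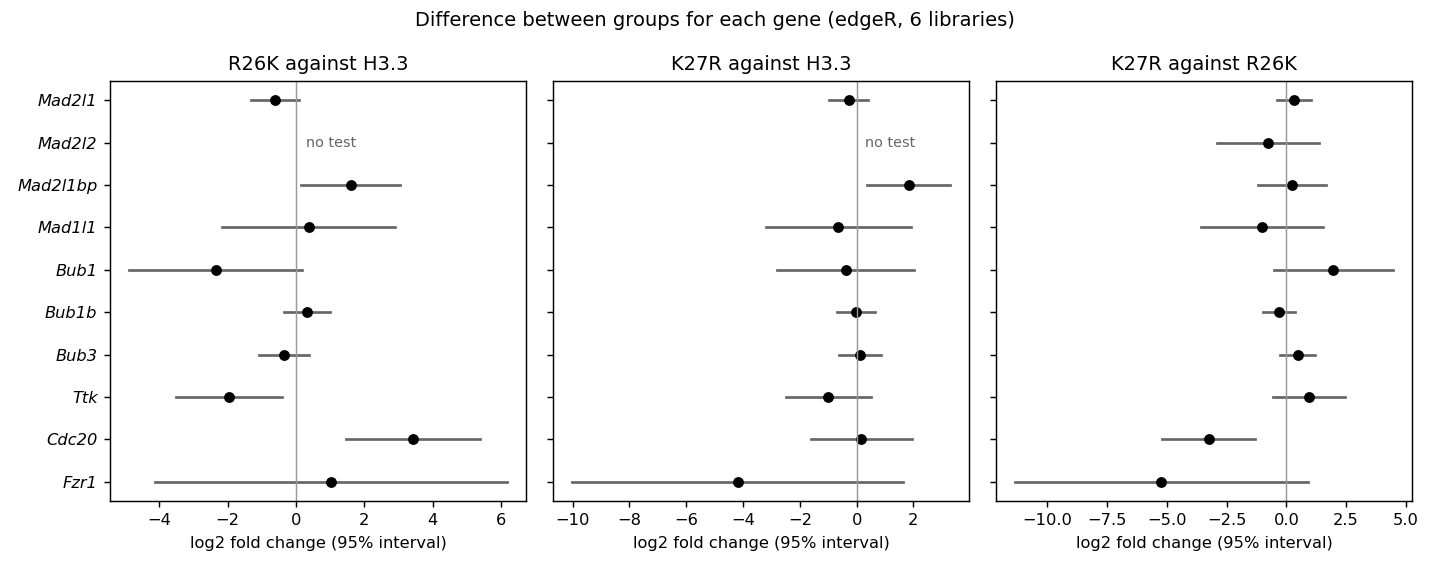
Log2 fold change of each gene in the 3 comparisons, with its 95% interval from the edgeR fit of 6 libraries, each panel on its own scale. The intervals of Cdc20 in both comparisons with R26K, of Ttk and Mad2l1bp in R26K against H3.3 and of Mad2l1bp in K27R against H3.3 exclude 0 before adjustment, and those of Fzr1 are the widest.

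Taking the tested members as a group, Mad2l2 apart, 0 of 9 passed in R26K against H3.3 by edgeR (Benjamini-Hochberg adjusted p under 0.05), where 0.403% of all tested genes were called higher and 0.216% lower. An unadjusted p under 0.05 was reached by 3 of 9 (Cdc20, Ttk and Mad2l1bp), against 21.7% of all tested genes and 13.4% of the 8412 with a count in both groups. DESeq2 called 1 of the 9 higher and 1 lower, against 8.10% and 4.95% of those 8412 genes. The 2 groups did not overlap for 7 of the 9. Of these, 4 were higher in R26K (Cdc20, Fzr1, Mad2l1bp and Mad1l1), where the share over all genes was 44.8%. The other 3 were lower (Ttk, Bub1 and Mad2l1), where it was 15.3%. Both shares include the 2210 genes without an H3.3 count, whereas all 9 members had counts in both groups. Fzr1 and Mad1l1 were near ties. Their lower R26K library was at 33.6 and 35.2 CPM, and their higher H3.3 library at 33.2 and 34.2 CPM. The median log2 fold change was 0.32 over the 9 and 0.66 over all tested genes, but 0.06 over the 8412 genes with a count in both groups and 0.03 over the 2857 genes of at least 50 CPM.

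In K27R against H3.3, 0 of 9 members passed, as did 0% of all genes in either direction. An unadjusted edgeR p under 0.05 was reached by 1 (Mad2l1bp), against 7.12% of all tested genes and 3.62% of the 8124 with a count in both groups. DESeq2 called 0 members, against 2.19% of those 8124 genes higher and 0.677% lower. Mad2l1bp was also the 1 member higher without overlap (15.9% of all genes), and 0 were lower without overlap (9.62%). These shares include 2543 genes without a count in one of the groups, unlike the 9 members. The median was -0.28 over the 9 and 0.12 over all genes, but -0.04 over the 8124 genes with a count in both groups and 0.02 over the 2857 genes of at least 50 CPM.

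In K27R against R26K, where Mad2l2 could be tested too, 0 of 10 passed, against 0.169% of all genes called higher and 0.206% lower. An unadjusted edgeR p under 0.05 was reached by 1 (Cdc20), against 13.2% of all tested genes and 8.94% of the 9846 with a count in both groups. DESeq2 called it lower, against 3.99% of those 9846 genes lower and 2.45% higher. Without overlap, 3 were higher in K27R (Bub1, Ttk and Bub3, against 17.5% of all genes) and 5 lower (Cdc20, Fzr1, Mad2l2, Mad1l1 and Bub1b, against 36.3%). These shares include 821 genes without a count in one of the groups, unlike the 10 members. For Mad2l2 the log2 fold change was -0.78 ± 0.84 (edgeR adjusted p = 0.929, interval -2.92 to 1.36), and with the correction for GC content and length it was 0.87.

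The members that were higher in R26K were the ones rich in G and C. The GC content of the longest coding transcript was 59.9% in Fzr1, 57.9% in Mad2l2, 56.8% in Mad1l1, 55.6% in Cdc20, 53.1% in Mad2l1bp and 50.4% in Bub1b. It was 43.0% in Ttk, 42.3% in Bub3, 41.0% in Bub1 and 40.1% in Mad2l1. Every tested member above 50% had a mean level higher in R26K than in H3.3, and every one below 44% a lower mean. Over the 9 members, GC content and log2 fold change had a Spearman rho of 0.783, and over 2846 genes of at least 50 CPM, which share the same libraries, 0.432. In K27R against H3.3 the values were -0.167 and 0.070. In K27R against R26K, with Mad2l2 among 10 members, they were -0.855 and -0.441. After each library was corrected for GC content and length, an alternative added after the data were seen, Mad1l1 (-1.53), Bub1b (-0.56) and Fzr1 (-1.68) changed sign in R26K, and none of the 9 passed. Cdc20 (1.93) and Mad2l1bp (0.86) were still above 0, and Bub1 (-2.09), Ttk (-1.77), Mad2l1 (-0.36) and Bub3 (-0.16) below it.

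**Figure D3:**
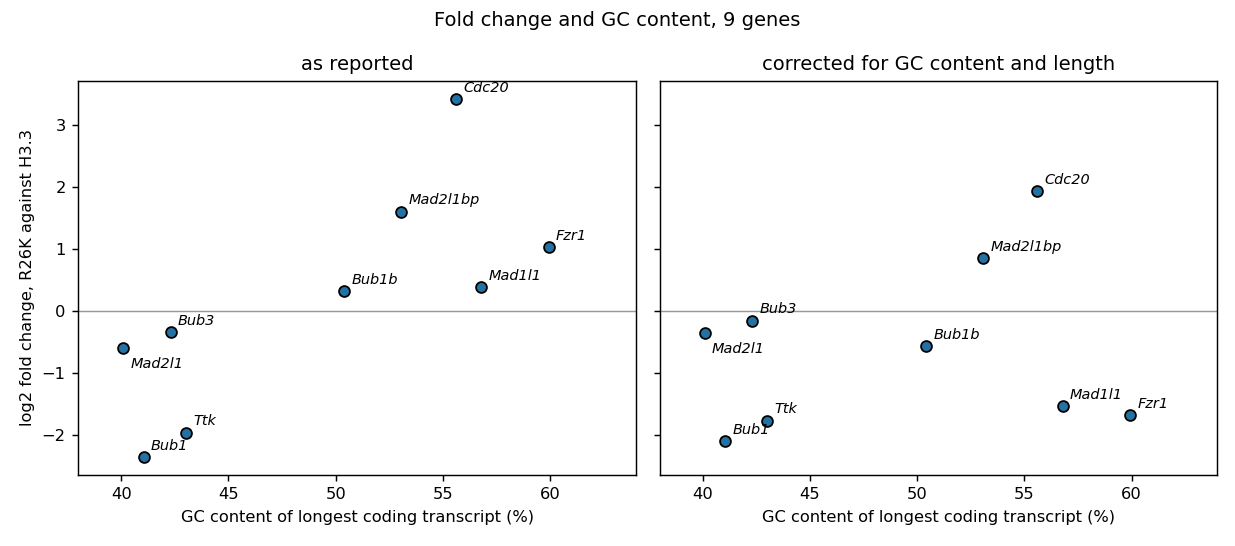
Log2 fold change in R26K against H3.3 (vertical) and GC content of the longest coding transcript in percent (horizontal) for the 9 tested genes, before (left) and after (right) each library was corrected for GC content and length. Before the correction the 5 genes above 50% GC lie above 0 and the 4 below 44% lie below it, and after it 3 of the 5 lie below 0.

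Genes that work beside the checkpoint were then counted from 4 lists. A gene without a count in one of the groups compared passed the filter only through the other group, so it is described and left out of the counts below. Of 26 partners at the kinetochore 25 were tested, and 0 passed by edgeR in any comparison. In R26K against H3.3, 4 of the 23 with counts in both groups had an unadjusted edgeR p under 0.05 (13.4% over all such genes), and DESeq2 called 2 in each direction (8.10% higher and 4.95% lower over all such genes). The median log2 fold change of the 23 was 0.23, against 0.06 over all such genes. Cenpe, a kinesin that also stimulates BubR1, was at 843 and 841 CPM for H3.3, 671 and 354 for K27R, and 389 and 344 for R26K (-1.20 ± 0.35, edgeR adjusted p = 0.204). Its R26K libraries were below all of H3.3. Aurkb, the mitotic Aurora kinase of the chromosomal passenger complex, lacked counts in H3.3. It was at 17.6 and 17.3 CPM for K27R and 26 and 16 for R26K. The means of Aurkb in these groups were 71.9-fold and 86.7-fold the mean H3.3 floor. Its meiotic relative Aurkc was at 127 and 202 CPM for H3.3 and 126 and 59.7 for R26K, with K27R at 100.5 and 303.

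In K27R against H3.3, 2 of 22 such partners had an unadjusted edgeR p under 0.05 (3.62% over all genes counted in both groups). The median of the 22 was 0.10, against -0.04 over all such genes. DESeq2 called 1 of them higher (2.19% over all such genes). Nuf2, of the Ndc80 complex, was at 429 and 357 CPM for H3.3 and 551 and 817 for K27R (0.80 ± 0.29, edgeR adjusted p = 0.522). Between K27R and R26K, 2 of 23 had such a p (8.94% over all), and DESeq2 called 1 in each direction (2.45% higher and 3.99% lower over all). These were Spdl1, which brings dynein to kinetochores, at 540 and 507 CPM for K27R and 290 and 213 for R26K (1.06 ± 0.30, edgeR adjusted p = 0.302), and Tpr, which holds Mad1 at the nuclear pore, at 104 and 67.5 CPM for K27R and 224 and 215 for R26K (-1.35 ± 0.40, adjusted p = 0.315).

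All 24 genes of the APC/C with its inhibitors and substrates were tested, and 0 passed by edgeR in any comparison. In R26K against H3.3, 4 of the 23 with counts in both groups had an unadjusted edgeR p under 0.05 (13.4% over all such genes). The median of the 23 was 0.30, against 0.06 over all such genes. DESeq2 called 2 higher and 3 lower (8.10% and 4.95% over all such genes). Cdc27, a core subunit, was at 398 and 380 CPM for H3.3 and 181 and 158 for R26K (-1.20 ± 0.27, edgeR adjusted p = 0.127). Ccnb1, cyclin B1, the substrate whose destruction Cdc20 starts, was at 1504 and 1542 CPM for H3.3, 1397 and 1592 for K27R, and 853 and 788 for R26K. Its R26K libraries lay below all others (-0.89 ± 0.20 against H3.3, edgeR adjusted p = 0.127). Of the 24 tested genes of the list, 13 had a log2 fold change above 0 in R26K against H3.3 and 11 below. Between K27R and R26K, Ccnb1 and Cdc27 again had the smallest p (0.86 ± 0.20 for Ccnb1, edgeR adjusted p = 0.193, and 0.79 ± 0.27 for Cdc27, 0.346). There, 3 of 24 had an unadjusted edgeR p under 0.05 (8.94% over all). DESeq2 called 1 in each direction (2.45% higher and 3.99% lower over all). In K27R against H3.3, 1 of 23 had such a p (3.62% over all) and DESeq2 called 0 (2.19% higher and 0.677% lower over all). This was Anapc10, a subunit that helps to bind substrates, at 307 and 296 CPM for H3.3 and 165 and 157 for K27R (-0.90 ± 0.29, edgeR adjusted p = 0.522). It was lower in R26K too, at 127 and 136 CPM (-1.20 ± 0.29 against H3.3, edgeR adjusted p = 0.154). Anapc7, another subunit, had 0 counts for H3.3 and stood at 19.0 and 47.3 CPM for K27R, with a mean 137-fold the mean H3.3 floor. In R26K it was at 9.22 and 29.6 CPM, with a mean 80.2-fold that floor.

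The partners of Mad2l2 in translesion synthesis and shieldin had 13 of 15 listed genes in the table and 12 tested, and 0 passed by edgeR in any comparison. Trp53bp1 (53BP1), which brings shieldin to broken DNA, was at 338 and 337 CPM for H3.3, 611 and 469 for K27R, and 759 and 743 for R26K (1.15 ± 0.25 for R26K against H3.3, edgeR adjusted p = 0.113). Champ1, a zinc finger protein that binds Mad2l2, was at 46.6 and 40.3 CPM for H3.3, 123 and 140 for K27R, and 135 and 136 for R26K (1.64 ± 0.42 for R26K, adjusted p = 0.165, and 1.60 ± 0.42 for K27R, adjusted p = 0.522). These 2 were the genes of the list with an unadjusted edgeR p under 0.05 in each comparison with H3.3, out of 11 with counts in both groups, against 13.4% over all such genes with R26K and 3.62% with K27R. DESeq2 called 2 of the 11 higher with R26K (8.10% over all such genes) and 1 with K27R (2.19%). It called 0 lower in either (4.95% and 0.677%). The median over the 11 was 0.11 with R26K and -0.15 with K27R, against 0.06 and -0.04 over all such genes. Rev3l, the catalytic subunit of polymerase zeta, was at 0.383 and 53.6 CPM for H3.3 and 30.7 and 27.4 for R26K, with replicates too far apart to read a direction. Pold4, a subunit of polymerase delta, lacked counts in H3.3 and stood at 9.02 and 17.2 CPM for K27R and 6.10 and 8.21 for R26K. Between K27R and R26K, 1 of 12 had an unadjusted edgeR p under 0.05 (8.94% over all) and DESeq2 called 0 (2.45% higher and 3.99% lower over all). That gene was Rif1, which acts beside 53BP1, at 350 and 251 CPM for K27R and 543 and 508 for R26K (-0.81 ± 0.32, edgeR adjusted p = 0.362). Of 4 other HORMA domain genes 3 were tested, and none of the 3 had a count in H3.3. Atg101, of autophagy, was at 18.1 CPM in K27R replicate 1 and at 0 in replicate 2, and at 54.3 and 47.3 CPM for R26K. The meiotic genes Hormad1 and Hormad2 were at most at 4.06 CPM in any library.

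**Figure D4:**
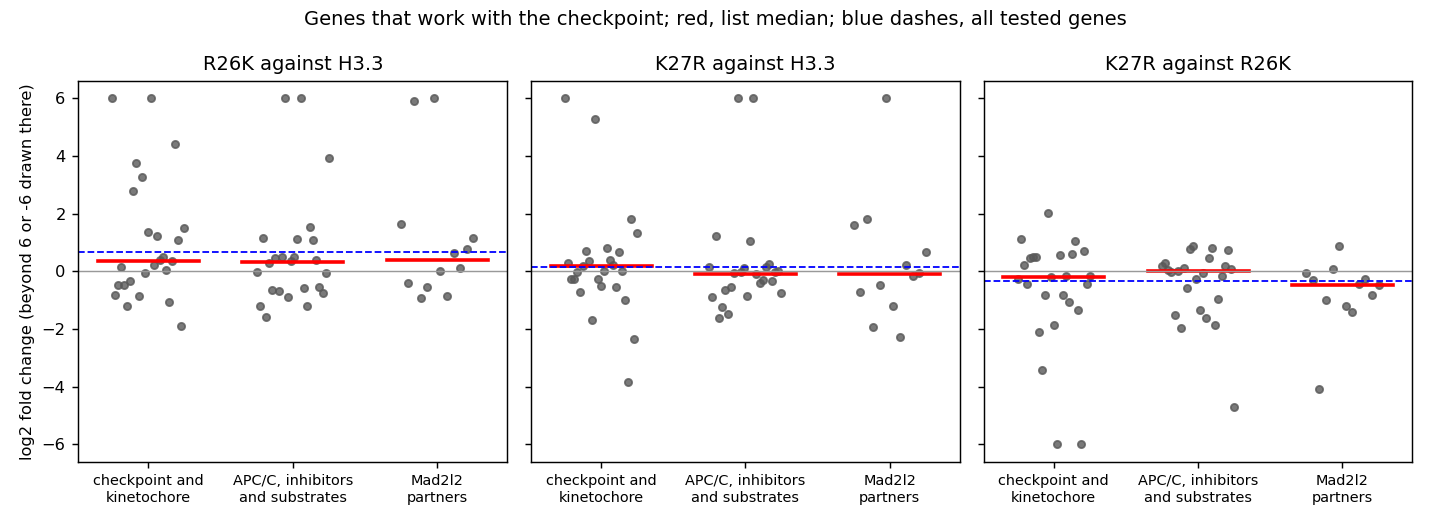
Log2 fold change of each tested gene of 3 lists in the 3 comparisons, a point per gene in alphabetical order, values beyond 6 or -6 drawn there. Red lines give the list medians with genes lacking counts at their floor, and the blue dashed line that of all tested genes. In R26K against H3.3 the list medians (0.35, 0.34 and 0.38) lie below that of all genes (0.66), among which 2210 lacked H3.3 counts. Over genes with a count in both groups the order is the other way. The list medians there were 0.23, 0.30 and 0.11, against 0.06 over all 8412 such genes.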

How the data were processed

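Single 50-base reads of SMARTer cDNA in Nextera libraries were trimmed with cutadapt 1.9.1, aligned with TopHat2 2.1.0, handled with SAMtools 1.3 and counted with featureCounts on mm10, per the submitters' processing notes and the labels. For the annotation, strand setting and treatment of reads with several matches, the sources used here give nothing. The deposited values are raw whole-number counts per gene, 1 column per library. SMARTer priming on poly(A) tails and a kit without strand marks bear on every level given.

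Groups and replicate numbers came from the sample titles. Genes were kept by edgeR's filterByExpr (10667 genes), scaled with TMM, and tested by quasi-likelihood (edgeR 4.0.16, glmQLFit then glmQLFTest, under R 4.3.3), two-sided, in a model with 3 group means over 6 libraries, with Benjamini-Hochberg adjustment across every tested gene (threshold 0.05). Intervals (95%) are log2 fold change ± t times SE, on the fit's degrees of freedom. The labels call the libraries biological replicates without naming separate females, so a p-value sets a difference against library spread alone, which may be technical. Exon lengths, GC content and 3′ ends came from GENCODE M21, and promoters from RefSeq, where all 10 members matched. Alternatives were DESeq2 1.42.0, 2 scalings, 2 filters, other fits, thinning and each library left out. The members, lists and tests were chosen with earlier results of these data known. The rule for names was all 10 members, any called list member or else the 2 with the smallest p in each comparison, and the 5 genes most like Mad2l2. Other genes (Aurkc, Rev3l, Hormad1 and Hormad2) were chosen after their values were seen. The steps were run on simulated counts with large changes only and a smaller spread than these data. That run cannot show how well the tests find changes here.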

Additional observations from a re-analysis of the deposited data

How the results depend on the processing

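Of the log2 fold changes of the tested members under 16 alternatives, 135 of 144 kept direction and side of the threshold in R26K against H3.3, 130 of 144 for K27R against H3.3 and 152 of 160 for K27R against R26K. In the first, Cdc20 was called, as the 1 member higher, with DESeq2, without the filter and with the replicate block, and leaving out a library gave 0 to 1 members higher (1 without R26K replicate 1 or R26K replicate 2). DESeq2 also called 1 member lower, and 10 genes of the 4 lists higher (genes without a count in H3.3 included) and 5 lower. In K27R against R26K, DESeq2 and the replicate block called 1 member lower (Cdc20), leaving out a library gave 0 to 1 (again without either R26K library), and DESeq2 called 2 list genes in each direction. In K27R against H3.3 DESeq2 called 6 list genes higher. Beside these list counts, DESeq2 called 1218 of all 10667 tested genes higher and 426 lower in R26K against H3.3. The numbers were 533 and 152 for K27R against H3.3, and 249 and 510 for K27R against R26K. The lone library left in a group is assumed to vary like the others. The cause of these differences was not tested.

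Sign changes of members that passed in neither setting were these. The correction for GC content and length turned Mad1l1 (-1.53), Bub1b (-0.56) and Fzr1 (-1.68) in R26K against H3.3, Mad1l1 (0.56), Mad2l2 (0.87) and Bub1b (0.41) in K27R against R26K, and Cdc20 (-0.10) in K27R against H3.3. In K27R against H3.3, Bub1b was near 0 and turned with upper-quartile scaling (0.025), the filter of 10 CPM (0.0033), the fit of 2 groups (0.012), the replicate block (0.010) and thinning (7.5e-05), and the block turned Cdc20 (-0.15). Leaving out a library gave ranges across 0 in that comparison for Bub1 (-1.11 to 1.20), Bub1b (-0.31 to 0.37), Bub3 (-0.11 to 0.41), Cdc20 (-1.59 to 0.94) and Fzr1 (-5.19 to 2.38), and in K27R against R26K for Mad2l1bp (-0.26 to 0.60).

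Same-numbered libraries showed little shared shift: their deviations from their group means correlated at 0.053, -0.015 and 0.019 over 2857 genes. This cannot show whether they were handled together. With the block, all genes called went from 43 higher and 23 lower to 195 and 65 for R26K against H3.3, and from 18 and 22 to 134 lower and 61 higher in K27R against R26K. Over all genes, DESeq2 called 1218 higher and 426 lower in R26K against H3.3, 533 and 152 for K27R against H3.3 (edgeR 0 and 0) and 249 and 510 for K27R against R26K. Without the filter the counts were 178 and 63 in the first and 56 and 100 in the third, with the 10 CPM filter 111 and 42, and 37 and 58, with the fit of 2 groups 0 and 0, and 7 higher, and with the correction 5 and 15, and 7 lower. Leaving out a library gave 1 to 147 higher and 0 to 56 lower in the first (lowest without either K27R library, highest without H3.3 replicate 1 and R26K replicate 1), 0 to 5 higher and 0 lower in the second, and 0 to 52 and 0 to 95 in the third (0 without either K27R library). With 2 libraries a group, Fzr1, Mad1l1 and Bub1 in particular had intervals too wide to show or exclude changes of several-fold.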
